A study of Mus musculus with 18 samples.

Results

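The let-7 miRNAs of mouse liver were followed across oral doses of benzo(a)pyrene (BaP), a product of incomplete combustion. It belongs to the polycyclic aromatic hydrocarbons and is activated through the aryl hydrocarbon receptor to DNA-binding metabolites. The members were the 8 mature let-7 names on the Agilent mouse miRNA array, mmu-let-7a, b, c, d, e, f, g and i, taken by name from 576 miRNA names on the array. Of 69 miRNA names that passed the presence filter, 8 were these members. Livers came from male Muta™Mouse animals of strain 40.6, aged 25 weeks and carrying a bacterial lacZ reporter. They were gavaged daily for 28 days with BaP in olive oil, and liver was taken 3 days after the last dose. There were 5 arrays each at 25, 50 and 75 mg/kg/day and 3 arrays of vehicle controls given olive oil alone, with 1 array per animal, so the P values reflect the spread between animals. Other control animals of the study were not analysed here.

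The let-7 miRNAs are a conserved family first found as regulators of developmental timing in worms. They are abundant in differentiated tissues, where they repress growth-related messages such as Ras family, Hmga2 and Lin28 mRNAs. The RNA-binding protein LIN28 in turn blocks the maturation of let-7 precursors. Members share the seed, the stretch near the 5′ end that pairs with target mRNAs, and differ mostly in the bases behind it.

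The mature sequences are shown because the members differ by so few bases that the array has to separate them. All 8 members had a RefSeq entry (GRCm38.p6) of 22 bases. They are written 5′ to 3′ with the seed, bases 2 to 8, in capitals.
mmu-let-7a: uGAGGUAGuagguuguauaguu
mmu-let-7b: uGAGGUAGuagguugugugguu
mmu-let-7c: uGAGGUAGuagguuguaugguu
mmu-let-7d: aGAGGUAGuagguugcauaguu
mmu-let-7e: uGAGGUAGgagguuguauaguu
mmu-let-7f: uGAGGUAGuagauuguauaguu
mmu-let-7g: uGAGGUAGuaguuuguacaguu
mmu-let-7i: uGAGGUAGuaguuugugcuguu

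The seed GAGGUAG was the same in all 8. Counted from the 5′ end against let-7a, let-7c carried only A19G, let-7b carried A17G and A19G, let-7e carried U9G and let-7f carried G12A. Let-7d carried U1A and U16C, let-7g carried G12U and U18C, and let-7i, the most distant, carried G12U, A17G, U18C and A19U. Let-7b and let-7c differed from each other by the single substitution G17A. The probe sequences were not used here, and whether the probes separate members this similar was not tested.

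The members come from several genomic loci (GRCm38.p6). Let-7c has a copy at chr15:85706616-85706637 on the plus strand, next to let-7b at chr15:85707325-85707346, with 621 bases between the hairpins. Both lie inside the annotated lncRNA gene Lncppara. The other let-7c copy is at chr16:77599672-77599693 on the plus strand, where its hairpin follows that of miR-99a by 656 bases and no host gene is annotated. Let-7d (chr13:48536078-48536099), let-7f (chr13:48537889-48537910) and let-7a (chr13:48538239-48538260) form a cluster on the minus strand of chromosome 13. A further let-7f copy (chrX:151912353-151912374) lies beside miR-98 within the span of Huwe1. Let-7e (chr17:17830366-17830387) lies within the span of Spaca6 next to miR-125a, and let-7g (chr9:106178846-106178867) lies within the span of Wdr82. Let-7i (chr10:122985698-122985719, minus strand) has no overlapping gene. A further let-7a hairpin lies on chromosome 9 in the lncRNA gene Mir100hg, between miR-100 and miR-125b-1.

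Signals are given as log2 median spot signal after cyclic loess normalization, without background subtraction. They were averaged over the probes of a name that passed the presence filter, also on arrays where such a probe was not present. A miRNA was called when its limma P, adjusted over all 69 miRNAs tested (Benjamini-Hochberg), was under 0.05. Arrays lay on 3 slides, which entered the model as a block. Slide 1 held 1 control and 6 dosed arrays, slide 2 held 4 dosed arrays and no control, and slide 3 held 2 controls and 5 dosed arrays. Between 5.72% and 16.5% of spots per array were well above background. Each member had 2 probes of 10 spots each. All 16 member probes passed the presence filter, 12 of them were present on all 18 arrays, and no member spot was saturated.

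All 8 members gave signal in control liver. Mean control signal was 9.62 ± 0.16 (SD, n = 3) for let-7a and 9.62 ± 0.45 for let-7f on the log2 scale. Let-7g, let-7b and let-7c followed at 8.73 ± 0.22, 8.57 ± 0.09 and 8.22 ± 0.22. Let-7d (8.00 ± 0.04), let-7i (7.19 ± 0.16) and let-7e (6.55 ± 0.09) were dimmer. Since probes differ in brightness for equal amounts, this is an order of signal and not of abundance. Let-7a and let-7f differed by less than their SD, and let-7g differed from let-7b by less than the SD of let-7g. The hepatocyte miRNAs miR-122, miR-192 and miR-194 were present on all 18 arrays, as the label liver implies.

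The level of some members differed strongly by slide. Fitted alone, slide accounted for 91.8% of the variance of let-7i, 78.8% of that of let-7f and 22.5% of that of let-7g, against a median of 54.9% over all miRNAs tested. Dose was not in this fit and was uneven over the slides, with only 50 and 75 mg/kg/day on slide 2, so these shares can include dose differences. The slides did not shift the members in 1 direction. Let-7f averaged 9.98 ± 0.23 (SD, n = 7) on slide 1 and 9.43 ± 0.11 (n = 7) on slide 3, whereas let-7i averaged 6.93 ± 0.06 on slide 1 and 7.27 ± 0.05 on slide 3. These levels are means of 2 probes that did not shift alike. From control replicate 1 (slide 1) to control replicate 2 (slide 3), the dimmer let-7f probe went from 9.36 to 7.80. Its brighter probe read 10.9 on both. The brighter let-7i probe rose from 7.12 to 7.84 and the dimmer read 6.91 and 6.82. The let-7d probes moved in opposite directions (7.47 to 7.05 and 8.47 to 8.90). The slide share of a member thus depends on how the shifts of its 2 probes combine.

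**Figure D1:**
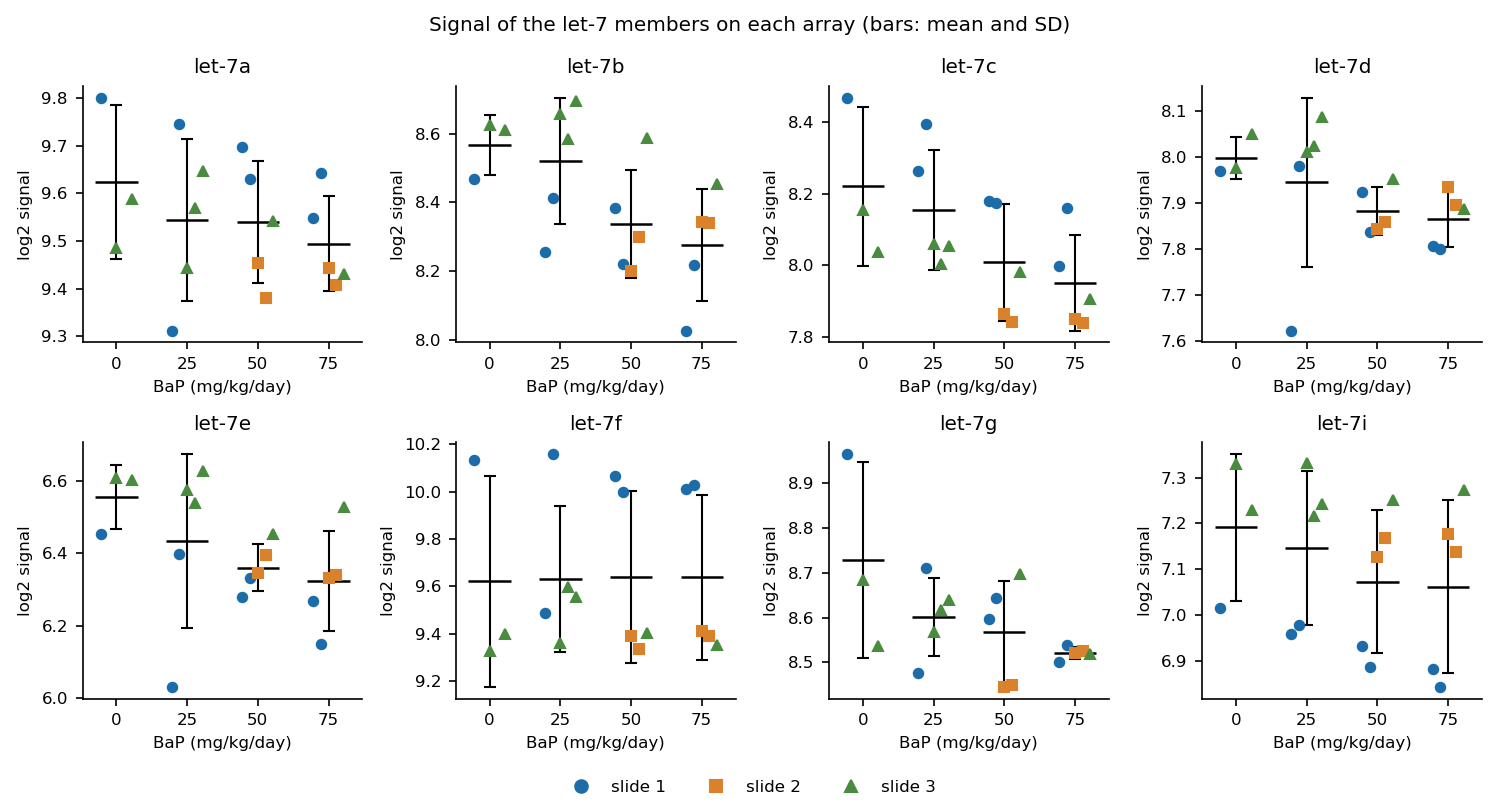
Log2 signal (vertical axis, different range in each panel) of the 8 let-7 members on all 18 arrays against BaP dose (horizontal axis), with points coloured and shaped by slide and black bars for the group mean and SD. In let-7c the points move down with dose within slides 1 and 3, while let-7f and let-7i are arranged mainly by slide; all 5 let-7g arrays at 75 mg/kg/day lie between 8.50 and 8.54.

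Let-7c was the only member called at any dose in this fit, and it was lower. On slide 1 its log2 signal was 8.47 in the control, 8.26 and 8.40 at 25 mg/kg/day, 8.18 and 8.17 at 50 mg/kg/day, and 8.00 and 8.16 at 75 mg/kg/day. On slide 3 it was 8.16 and 8.04 in the controls, 8.06, 8.00 and 8.06 at 25 mg/kg/day, 7.98 at 50 mg/kg/day and 7.91 at 75 mg/kg/day. Every array at 50 and at 75 mg/kg/day with a control on its slide lay below each control of that slide, whereas 2 of 5 arrays at 25 mg/kg/day did not. On slide 2, without a control, the arrays at 50 mg/kg/day (7.86 and 7.84) and at 75 mg/kg/day (7.85 and 7.84) overlapped.

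Fitted over the slides, let-7c fell by 0.21 ± 0.05 (SE) on the log2 scale at 50 mg/kg/day (adjusted P = 0.0458) and by 0.27 ± 0.05 at 75 mg/kg/day (adjusted P = 0.00533), the latter a signal 17.1% below control. Its slope over dose was -0.09 ± 0.02 per 25 mg/kg/day (adjusted P = 0.00135). At 25 mg/kg/day it was -0.08 ± 0.05 (adjusted P = 0.522). Neighbouring dose groups differed in mean by less than their SD. The call at 50 mg/kg/day held in 3 of 15 processing alternatives and was lost when any 1 of 12 arrays was left out (control replicates 1 and 2, BaP 25 replicates 2, 4 and 5, BaP 50 replicates 1 to 4, BaP 75 replicates 2 to 4), with adjusted P from 0.0122 to 0.458 over all 18 omissions. The call at 75 mg/kg/day held in 10 of 15 alternatives and was lost without control replicate 1, the lone control of slide 1 (-0.21, adjusted P = 0.107). The slope was called in 9 of 15 alternatives and in all 18 omissions. Each of these counts of alternatives includes the median over probes. With 2 probes it equals the mean and leaves the let-7c change as it was, so it adds no support.

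Across the family, calls were few. At 25 mg/kg/day 0 of 8 members were called (0% of all miRNAs tested were called, and 0 of 8 members had an unadjusted P under 0.05, against 10.1% of all miRNAs). At 50 mg/kg/day 1 of 8 was called, where 2.9% of all miRNAs were called and 1.45% were called lower. At 75 mg/kg/day it was again 1 of 8, against 5.8% called and 4.35% called lower, and for the slope 1 of 8, against 10.1% called and 7.25% called lower. All calls were let-7c. At an unadjusted P under 0.05, let-7b, c and g passed at 75 mg/kg/day (3 of 8, against 26.1% of all miRNAs). The estimates of the members leaned below 0 with the normalization used here, with 8 of 8 below 0 at 25 mg/kg/day and 7 of 8 at 50 and 75 mg/kg/day and in the slope, but 5 members at 75 mg/kg/day turned above 0 with Agilent's total gene signal. Over all miRNAs tested, 56.5%, 66.7% and 60.9% lay below 0 at the 3 doses and 68.1% in the slope. The median change of the members was -0.06, -0.10 and -0.13 at 25, 50 and 75 mg/kg/day, beside -0.02, -0.02 and -0.03 over all miRNAs tested.

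**Figure D2:**
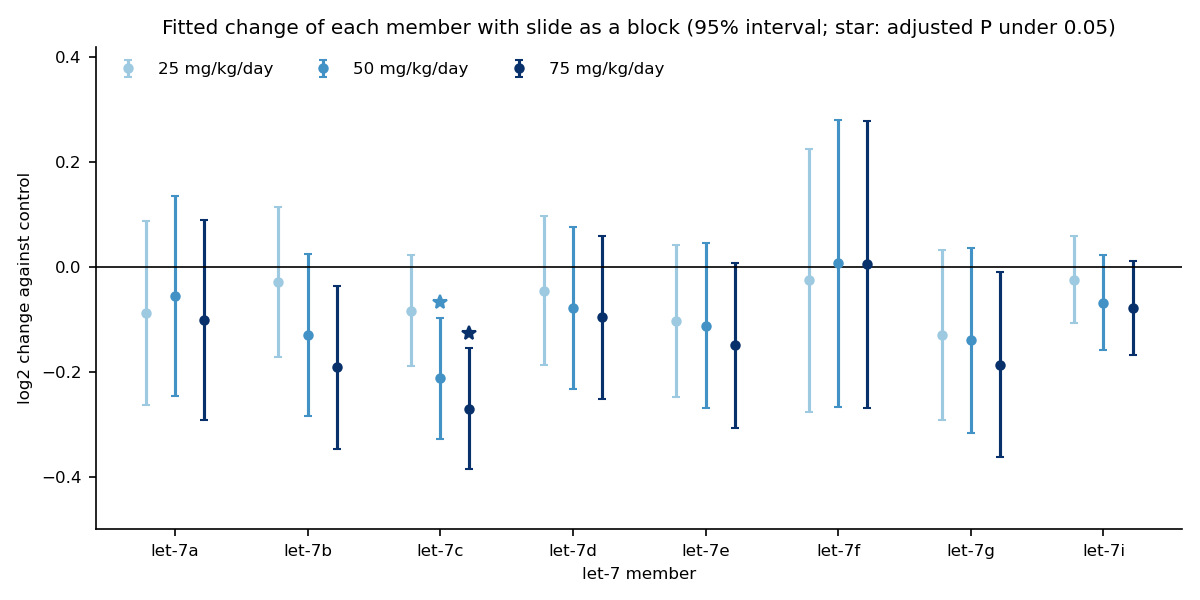
Fitted log2 change against control (vertical axis) of each member (horizontal axis) at the 3 doses, with slide as a block; bars are 95% intervals and stars mark adjusted P under 0.05. The stars stand only over let-7c at 50 and 75 mg/kg/day, and the intervals of let-7f at 75 mg/kg/day reach from -0.27 to 0.28; with Agilent's total gene signal the estimates of let-7a, b, d, g and i at 75 mg/kg/day turn above 0.

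Let-7b, which sits beside a let-7c copy on chromosome 15, was not called. On slide 1 its log2 signal was 8.47 in the control, 8.38 and 8.22 at 50 mg/kg/day and 8.03 and 8.22 at 75 mg/kg/day. On slide 3 it was 8.63 and 8.61 in the controls, 8.59 at 50 mg/kg/day and 8.45 at 75 mg/kg/day. With slide ignored, the 5 arrays at 75 mg/kg/day (8.03 to 8.45) all lay below the 3 controls (8.47 to 8.63), as they did for 8.7% of all miRNAs tested. Slide 3 held 2 of these controls. Fitted without dose, slide accounted for 69.7% of the variance of let-7b, which averaged 8.28, 8.30 and 8.60 on slides 1, 2 and 3. That share can include dose differences. Its change at 75 mg/kg/day was -0.19 ± 0.07 (adjusted P = 0.0926, unadjusted P = 0.0188) and its slope -0.07 ± 0.02 (adjusted P = 0.0602), both on the far side of the threshold.

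Let-7g, encoded within the span of Wdr82, showed the tightest group of any member. Its 5 arrays at 75 mg/kg/day read 8.50, 8.54, 8.52, 8.52 and 8.52 (SD 0.014), although they came from 3 slides. That tightness belongs to the mean of 2 probes, whose own SDs at this dose were 0.26 and 0.27. On slide 1 the dimmer probe read 7.96 and 7.90, against 7.45 on each array of slides 2 and 3. The brighter probe moved the other way, with 9.04 and 9.18 on slide 1 and 9.59 to 9.60 elsewhere. The let-7g controls were spread from 8.54 to 8.96 with the highest on slide 1, and the lowest control and the highest array at 75 mg/kg/day overlapped at 8.54. The fitted change was -0.19 ± 0.08 (adjusted P = 0.162), and over the 18 omissions of 1 array it ranged from -0.27 without control replicate 3 (adjusted P = 0.0456, the only omission with a call) to -0.03 without control replicate 1.

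Let-7d, from the chromosome 13 cluster, had controls close together at 7.97, 7.97 and 8.05. With slide ignored, its 5 arrays at 50 mg/kg/day (7.84 to 7.95) and its 5 arrays at 75 mg/kg/day (7.80 to 7.93) all lay below them, as was so for 7.25% and 8.7% of all miRNAs tested. With slide in the model its change was -0.08 ± 0.07 at 50 mg/kg/day (adjusted P = 0.563) and -0.10 ± 0.07 at 75 mg/kg/day (adjusted P = 0.42). In the value table deposited by the authors its change at 75 mg/kg/day was 0.14, in the opposite direction.

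The remaining members gave no call. At 75 mg/kg/day the changes were -0.15 ± 0.07 for let-7e (adjusted P = 0.213), -0.10 ± 0.09 for let-7a (0.4998) and -0.08 ± 0.04 for let-7i (0.255). Let-7f, from the same chromosome 13 cluster as let-7a and let-7d, had a change of 0.01 ± 0.13 (adjusted P = 0.982), with a 95% interval of -0.27 to 0.28 that includes the change of let-7c. Let-7e was the dimmest member, and one of its probes was present on only 12 arrays.

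Read within slides, the differences at 75 mg/kg/day were larger on slide 1, which rests on its single control, than on slide 3. They were -0.39 and -0.19 for let-7c, -0.35 and -0.16 for let-7b, and -0.44 and -0.09 for let-7g, in that order. Every array at 75 mg/kg/day with a control on its slide lay below each control of that slide for 6 of 8 members (all but let-7f and let-7i), against 30.4% of all miRNAs tested. At 50 mg/kg/day this held for 4 of 8 (let-7b, c, d and e), against 27.5%, and at 25 mg/kg/day for 0 of 8, against 7.25%. The counts at 50 and 75 mg/kg/day include let-7e, whose dimmer probe passed the presence filter only through the controls.

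The members were also compared array by array. Replicates 1 and 2 at each dose were all set against the single control of slide 1, and the other arrays against the mean of the 2 controls of slide 3. The 8 members share each array, so they are not separate readings. On the 3 arrays at 75 mg/kg/day that had a control on their slide, all 8 members lay below. The median member difference was -0.22, -0.21 and -0.10 for replicates 1, 2 and 5, where 59.4%, 62.3% and 58% of all miRNAs lay below. At 50 mg/kg/day all 8 lay below on replicates 1 and 2 and 5 of 8 on replicate 5, where 60.9%, 59.4% and 62.3% of all miRNAs lay below, so replicate 5 was near the share of all miRNAs. At 25 mg/kg/day the arrays differed, with replicates 1 and 2 on slide 1 and replicates 3 to 5 on slide 3. All 8 members lay below on replicate 1, with a median difference of -0.38, while replicates 2 and 3 had 6, replicate 4 had 4 and replicate 5 had 2 of 8 below. The shares of all miRNAs below on replicates 1 to 5 were 59.4%, 52.2%, 40.6%, 59.4% and 55.1%. Across all miRNAs replicate 1 had a median difference of only -0.03, and it also detected the most names (144, against 57 to 119 on the others) and had the largest share of spots well above background (16.5%). The part of that in its low let-7 signals was not tested. Without this array let-7c and let-7e were called at 75 mg/kg/day, and let-7b, c, d and e were called in the slope, all lower. The let-7e calls use the probe that passed the presence filter only through the controls.

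Within-array ratios of the normalized signals set the members against each other. A factor common to all spots of an array cancels in them, while the intensity-dependent part of the normalization does not. Over the 28 pairs of members, no ratio was called between 75 mg/kg/day and control by the exact permutation test (two-sided, 0 pairs at unadjusted P under 0.05, lowest adjusted P = 0.81). That test ignores slide and in a design of 3 against 5 arrays can give no P below 0.0179. After adjustment over 28 pairs a single pair at that P cannot pass. With slide as a block in limma, a fit added after the data were seen, let-7c changed relative to let-7i by -0.19 ± 0.06 at 75 mg/kg/day (95% interval -0.32 to -0.06, adjusted P = 0.138 over the 28 pairs). The slope of that ratio was -0.07 ± 0.02 per 25 mg/kg/day (adjusted P = 0.0489), the only one of the 28 to pass. The ratio of let-7c to let-7b, its neighbour on chromosome 15, changed by -0.08 at 75 mg/kg/day and that of let-7c to let-7f by -0.28 (95% interval -0.51 to -0.04, adjusted P = 0.321).

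**Figure D3:**
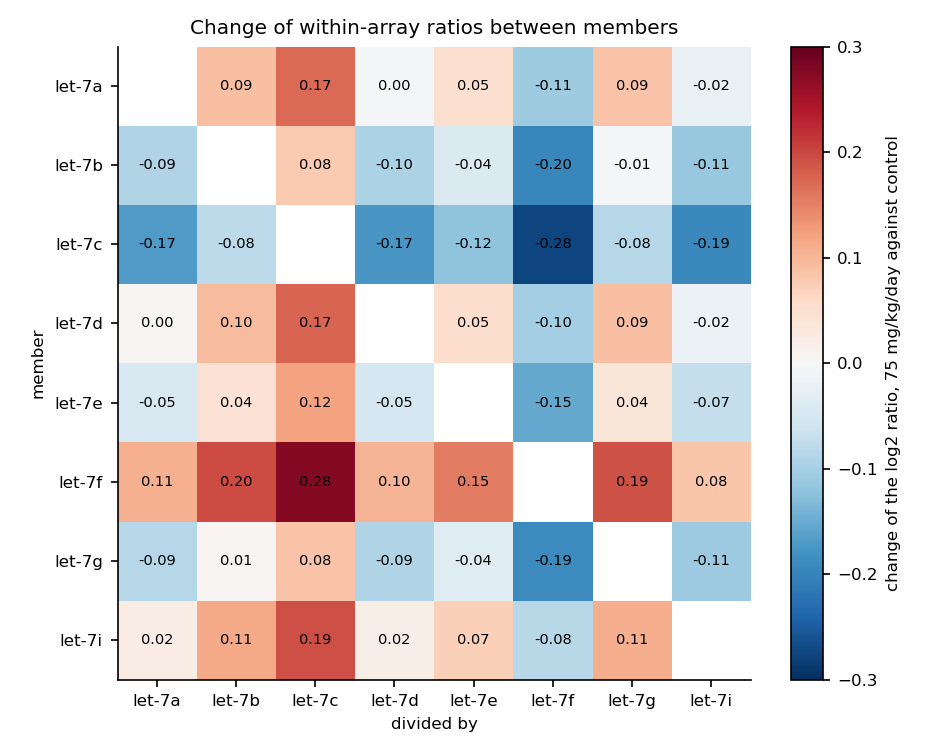
Change of the within-array log2 ratio of the row member to the column member between control and 75 mg/kg/day, fitted with slide as a block; blue is a lower ratio and red a higher one. The let-7c row is blue throughout, from -0.08 against let-7b and let-7g to -0.28 against let-7f, and at 75 mg/kg/day 0 of 28 ratios passed an adjusted P of 0.05.

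Single probes were fitted in the same way. The brighter let-7c probe changed by -0.27 (adjusted P = 0.0165 over 112 probes) and its dimmer probe by -0.27 (adjusted P = 0.0128) at 75 mg/kg/day, where 7.14% of all probes were called. Both were also called in the slope, where 9.82% were. At 50 mg/kg/day the dimmer let-7c probe was called (-0.25, adjusted P = 0.0289) and the brighter was not (-0.17, adjusted P = 0.151), against 2.68% of probes. The dimmer probe of let-7b was called in the slope (-0.08, adjusted P = 0.0171) and its brighter probe was not (-0.05, adjusted P = 0.154). Likewise the dimmer let-7i probe was called in the slope (-0.04, adjusted P = 0.0382) while the brighter was at -0.01 (adjusted P = 0.8). In all 8 members the dimmer probe had the lower estimate at 75 mg/kg/day, by a median of 0.07. For let-7e the dimmer probe passed the presence filter only through the controls, which favours that order. The same order held in 21 of 31 other miRNAs with a pair of probes that passed the filter (67.7%).

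**Figure D4:**
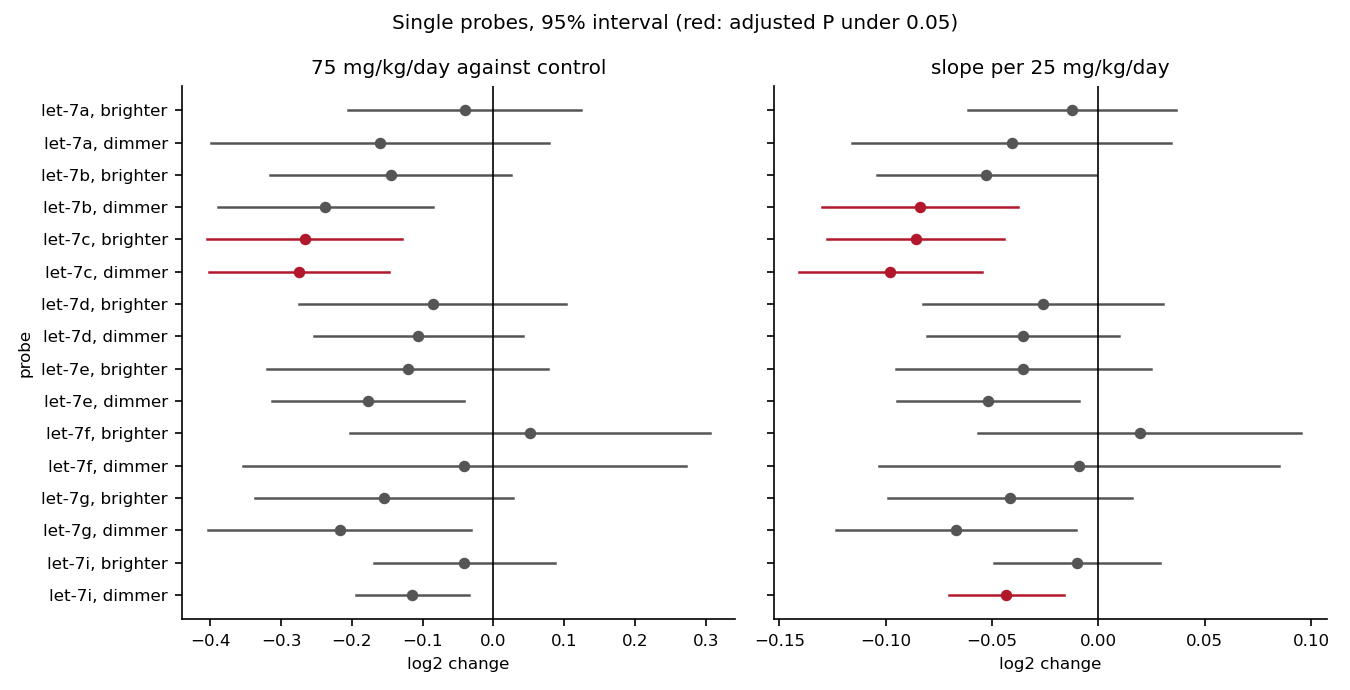
Log2 change (horizontal axis) of the brighter and dimmer probe of each member at 75 mg/kg/day (left) and slope per 25 mg/kg/day (right), with 95% intervals; red marks adjusted P under 0.05 over 112 probes. Both let-7c probes are red in both panels, and the dimmer probes of let-7b and let-7i are red only in the slope.

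Likeness between miRNAs was measured as the SD over the 18 arrays of the within-array log2 ratio after removing slide means, with a small SD for a steady ratio. The arrays share slide and labelling, so this is a description. For 7 of the 8 members the steadiest partner among all tested miRNAs was another member. Let-7a and let-7d, both from the chromosome 13 cluster, kept the steadiest ratio (SD 0.051), followed by let-7d and let-7e (0.058) and by let-7b and let-7c (0.066). Let-7i was the exception. Its steadiest partners were miR-151-5p (0.031) and miR-101a (0.042), and its nearest member, let-7c, ranked 23. The ratio of 2 miRNAs that each vary little has a small SD in any case. Among the members let-7i had the smallest SD between arrays on slides 1 and 3 (0.061 and 0.047). The part of this in its rank was not tested. Outside the family, let-7c was closest to miR-101a and miR-199a-3p, let-7b to miR-10a and miR-365, and let-7g to miR-92a and miR-26b. Let-7a and let-7d were closest to miR-98 and miR-10a, and let-7e and let-7f to miR-98 and miR-140.

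Related miRNAs gave no call. MiR-98 shares the seed of the family and lies beside a let-7f copy on the X chromosome. It changed by -0.01 ± 0.04 at 75 mg/kg/day (adjusted P = 0.967). MiR-202-3p, whose seed differs by G8U, did not pass the presence filter. Among the miRNAs that share loci with let-7 hairpins, miR-99a, miR-100 and miR-125b-5p passed it and miR-99b and miR-125a-5p did not. MiR-99a, the neighbour of let-7c on chromosome 16, was at -0.03 ± 0.05 at 75 mg/kg/day (adjusted P = 0.732), miR-100 at -0.14 ± 0.05 (0.0744) and miR-125b-5p at -0.11 ± 0.06 (0.225). The strands from the other arm of the hairpins were on the array under 7 names (let-7a*, b*, c-1*, d*, f*, g* and i*) and none passed the filter. Let-7b* was detected on 8 arrays, let-7f* on 5 and the others on 0.

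Markers of cell types were read beside these results, since in whole liver fewer cells of a type and less RNA per cell cannot be told apart. The 3 hepatocyte miRNAs were all tested and 0 were called, with summed log2 levels of 13.5 to 13.6 in controls and 13.5 to 13.9 at 75 mg/kg/day. The sums add linear signal, so the brightest miRNA largely sets them. In controls miR-122 averaged 13.5 on the log2 scale, against 8.27 for miR-192 and 6.60 for miR-194. The brightest tested blood cell miRNA averaged 9.05, against 6.41 and 6.28 for the others. Of 9 blood cell miRNAs 3 were tested and 0 called (9.23 to 9.75 in controls, 8.48 to 10.2 at 75 mg/kg/day), and of 2 endothelial miRNAs 1 was tested and 0 called (7.31 to 7.85 and 7.26 to 7.72). Of 6 mesenchymal miRNAs only miR-199a-3p was tested, 4 others did not pass the presence filter and 1 was not on the array under its name. It was called lower at 75 mg/kg/day and in the slope, with log2 levels of 6.57 to 6.66 in controls and 6.28 to 6.50 at 75 mg/kg/day. Its part in the let-7c result was not tested.

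Processing moved the median change of the whole table over a wider range than the change of let-7c relative to that median. At 75 mg/kg/day the median change of all miRNAs was -0.03 as reported here, -0.25 with array medians centred and 0.18 with Agilent's total gene signal. The change of let-7c was below 0 in all 15 alternatives, from -0.61 to -0.03. Taken relative to the median of all miRNAs under the same processing, it ranged from -0.36 to -0.20. A setting that only shifts whole arrays leaves this relative change as it was, so its steadiness is partly built in. Centring on miRNAs outside the family gave the same -0.24 as the fit reported here. There let-7c was not called by limma at 75 mg/kg/day (-0.21 ± 0.07, adjusted P = 0.11) or in the slope (adjusted P = 0.074). With array medians centred its SE was 0.40 (limma adjusted P = 0.627).

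**Figure D5:**
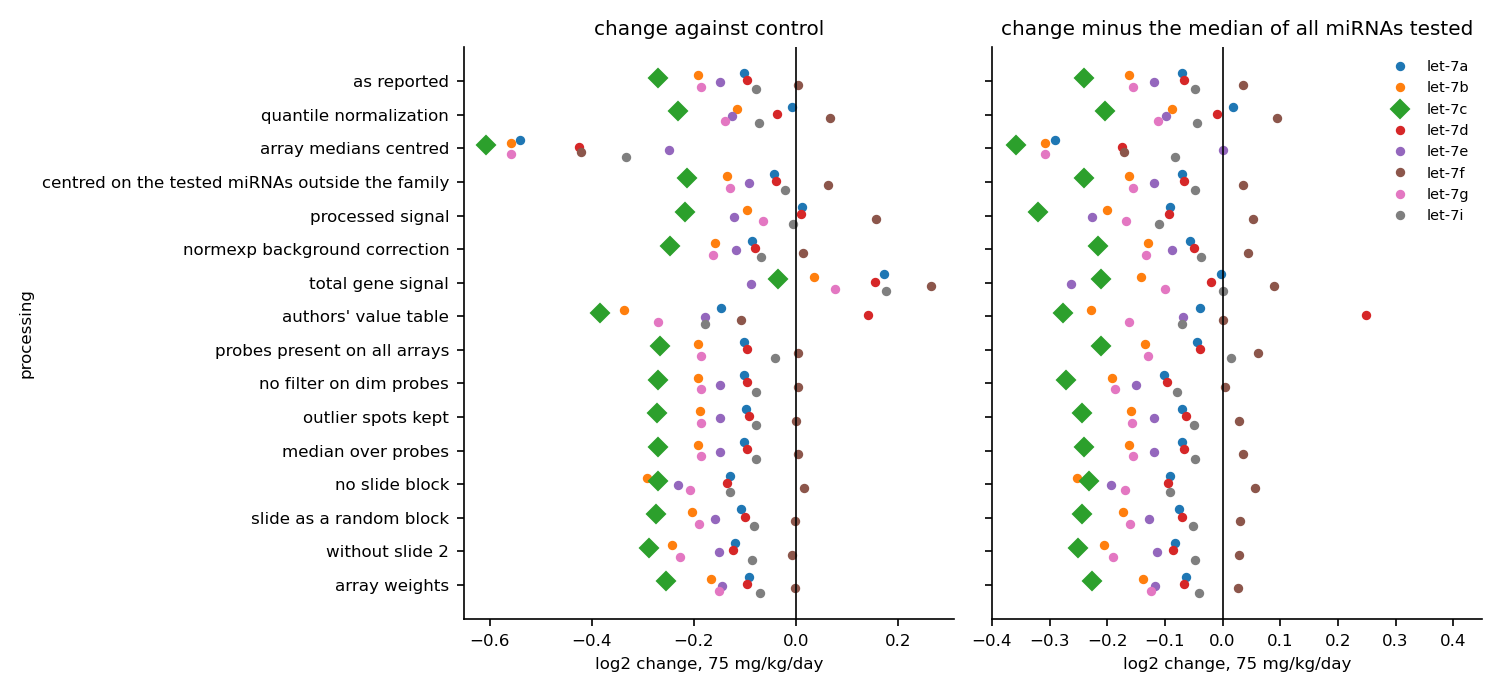
Log2 change at 75 mg/kg/day of the 8 members under each processing (rows), as measured (left) and after subtracting the median change of all miRNAs tested (right); let-7c is drawn as green diamonds. Let-7c lies below 0 in every row of both panels, while with total gene signal let-7a, b, d, f, g and i lie above 0 on the left.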

How the data were processed

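The deposited scanner files held 1-colour intensity values per spot, extracted by the authors with Agilent Feature Extraction 10.7.3.1 and not normalized. The deposited value table held log2 values that the authors had normalized between arrays. It was used as an alternative, and correlated with log2 median signal at 0.991 to 0.9995 over 574 names. Control spots were left out. Log2 median signals of the remaining 11540 spots, outliers among them, were normalized by cyclic loess. Spots marked as outliers were removed after that. Values were summarised by the median over spots of a probe and the mean over kept probes, whether or not a kept probe was present on the array. A probe counted as present where 0.5 or more of the spots carrying it were marked well above background, and probes present on at least 0.8 of the arrays of a group were kept, which left 112 of 1712 probes and 69 names. Changes were fitted with limma 3.58.1 in R 4.3.3, with slide as a fixed block and all 4 groups, and as a slope over dose. Scripts were tested on simulated data. The precision is limited by the number of arrays, above all the 3 controls. Replicate numbers follow listing order. The members, related lists and tests were chosen with earlier results of these data known. Named are the 8 members, their related lists and, for each member, the 2 other miRNAs with the steadiest ratio.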

Additional observations from a re-analysis of the deposited data

Results flagged for a closer look

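The log2 signal of let-7d on BaP 25 replicate 1 stood apart from its group. It was 7.62, against 7.98 to 8.09 on the other arrays at 25 mg/kg/day, and its gap to the nearest of them was 0.767 of the range of the group, above the limit of 0.71 for 5 samples (Dixon). It was 1 of 24 groups of member signals examined, and chance alone marks about 1 group in 20.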

How the results depend on the processing

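With 15 processing alternatives, the number of members called at 50 mg/kg/day (1 as reported) stayed at 1 in 3 and was 0 with quantile normalization, array medians centred, centring on miRNAs outside the family, processed signal, normexp, total gene signal, the deposited value table, probes present on all arrays, no filter on dim probes, no slide block, slide as a random block and without slide 2. At 75 mg/kg/day it was 0 with array medians centred, centring on miRNAs outside the family, processed signal, total gene signal and no slide block, and 1 otherwise. For members, which have 2 probes, the median over probes equals the mean, so that alternative leaves their changes as they were. In the slope it was 0 with array medians centred, centring on miRNAs outside the family, processed signal, the deposited value table and no slide block, and 2 (let-7b and let-7c) with probes present on all arrays, slide as a random block and without slide 2. With total gene signal the 1 call in the slope was let-7i, higher by 0.06 (adjusted P = 0.0423). At 25 mg/kg/day it was 0 throughout, except 2 (let-7c and let-7g, both lower) with the deposited value table. Leaving out 1 array at a time gave 0 to 0 calls at 25 mg/kg/day, 0 to 1 at 50, 0 to 2 at 75 (0 without control replicate 1, 2 without BaP 25 replicate 1 or control replicate 3) and 1 to 4 in the slope (4 without BaP 25 replicate 1, 2 without BaP 50 replicate 3 or BaP 75 replicate 4). The cause was not tested. Of 28 pair ratios at 75 mg/kg/day 0 were called under the 5 alternatives tried. Except for the limma fit with slide as a block, these used the exact permutation test, whose lowest possible P is 0.0179. After adjustment over 28 pairs a single pair at that P cannot pass. The lowest adjusted P of that test was 0.5 with quantile normalization and with processed signal, so these counts of 0 say little about the ratios.

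Among 476 member changes and slopes recomputed under the alternatives, 56 changed sign, and of these 1 was called (the let-7i slope above). Those given singly in the report were as follows, as log2 changes with doses in mg/kg/day. With array medians centred, let-7f was -0.42 at 75 and -0.093 in the slope. With processed signal, let-7d was 0.029 at 50, 0.0103 at 75 and 0.0017 in the slope, and let-7a was 0.012 at 75. With total gene signal, let-7d was 0.111 at 50. At 75 let-7a, b, d, g and i were 0.174, 0.0354, 0.156, 0.0763 and 0.176, and their slopes were 0.0545, 0.0016, 0.0495, 0.0311 and 0.0603. With the deposited value table, let-7d was 0.066 at 50, 0.141 at 75 and 0.0482 in the slope, and let-7f was -0.108 at 75 and -0.0088 in the slope. Let-7f at 75 was -0.000597 with slide as a random block, -0.0077 without slide 2 and -0.0017 with array weights, and its slope with array weights was -0.0089. Leaving out 1 array at a time, let-7f ranged from -0.0462 to 0.117 at 75 and from -0.0228 to 0.0319 in the slope. The cause was not tested. Let-7e had no value with probes present on all arrays. No paired analysis was possible because the labels carry no number that ties animals across groups and replicate numbers follow listing order. Dim probes lie close to background, where a log2 change without background subtraction can understate the change. Whether it did so here was not tested. At 75 mg/kg/day the dimmer probe had the lower estimate in all 8 members, among them let-7e, whose dimmer probe passed the filter only through the controls. Let-7c was -0.25 with normexp and -0.22 with processed signal, against -0.27 as reported. Relative to the median of all miRNAs it was -0.22, -0.32 and -0.24, in that order.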
